A study of Mus musculus with 12 samples.

Results

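Isl1, a transcription factor of the LIM homeodomain family, was detected in some of these mouse hippocampus samples and not in others, and the arrays were chosen by that signal alone. An array was counted as Isl1-detected when the single Isl1 probe (ILMN_2727472) had a detection p-value under 0.05 in the scanner output. By this rule 7 of the 12 arrays held detected Isl1 and 5 did not. Each sample was the hippocampus of a male mouse of the C57BL/6J strain, taken at an age of 3 weeks and run on 1 bead array. The 6 ethanol samples came from dams that drank 10% ethanol by choice between 0.5 and 8.5 days post-coitum, and the other 6 were labelled as controls, whose own drinking is not described separately in the labels. The sample titles carry 2 different long numbers, each shared by 3 ethanol and 3 control samples. These numbers are read here as 2 beadchips, which the titles do not state. Nothing in the labels gives the litters, and p-values therefore measure only how these samples vary. The comparison asks which genes, among them markers of neighbouring tissue, varied with the Isl1 class. Whether the dissections differed was not tested.

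Isl1 protein specifies motor neurons in the spinal cord and cholinergic and striatal projection neurons in the ventral forebrain. In the adult forebrain it is known from the striatum, septum, hypothalamus and other subpallial structures, whereas the pyramidal cells and granule cells of the hippocampus are of pallial origin. The septum lies directly in front of the hippocampus and is joined to it through the fimbria and fornix, and the choroid plexus and ependyma line the ventricle beside it. Zic1 and Zic4, zinc finger transcription factors whose genes lie next to each other, are expressed in the septum and other medial parts of the brain.

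Detected probes numbered 20804 to 21672 per array out of 45281, correlations between normalized arrays ran from 0.982 to 0.993, and the number of arrays limits the precision of every value. CA1 pyramidal genes had a mean log2 signal of 10.38 to 10.57 on the arrays with Isl1 and 10.54 to 10.62 on those without, so markers of the labelled tissue were present throughout. A set of 4 arrays stood apart from the rest. Their log2 signal of Ttr (transthyretin, the most abundant transcript of the choroid plexus) was 10.08 for ethanol replicate 1, 9.62 for ethanol replicate 3, 11.00 for control replicate 1 and 8.33 for control replicate 4. The other 8 arrays lay between 15.56 and 15.81. These 4 arrays also lay apart on the first principal component, at -28.5 to -23.3 against 9.2 to 17.3 for the others, and ethanol replicate 1 lay apart on the second at -32.8, against -8.5 to 20.4 for the other 11 arrays. In bulk tissue, fewer cells of a type and less RNA per cell cannot be told apart.

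The values that define the classes are given here as a description. On the arrays with detected Isl1, its log2 signal was 7.51, 7.53 and 6.63 in ethanol replicates 1, 2 and 4, and 6.69, 8.37, 5.71 and 8.05 in control replicates 1, 3, 5 and 6. On the arrays without, it was 4.83, 4.66 and 4.68 in ethanol replicates 3, 5 and 6, and 4.59 and 4.80 in control replicates 2 and 4. Control replicate 5 was the array just inside the limit, with a detection p-value of 0.03098 and a scanner signal of 161.6. The nearest arrays outside it were ethanol replicate 3, with a detection p-value of 0.35363 and a signal of 117.5, and control replicate 4, with 0.38996 and 127.3. The classes were spread over the conditions: Isl1 was found on 3 of the 6 ethanol arrays, 4 of the 6 control arrays, 4 of 6 arrays of beadchip 1 and 3 of 6 of beadchip 2, and 2 of the 4 arrays with low Ttr and 5 of the 8 others. Fisher's exact test (two-sided) gave p = 1 for each of these 3 splits, unadjusted.

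**Figure D1:**
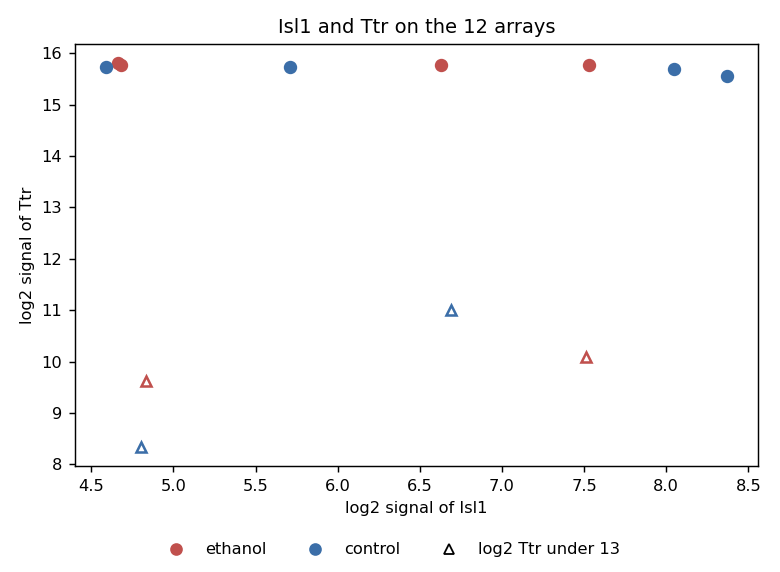
Log2 signal of Ttr (vertical axis) against log2 signal of Isl1 (horizontal axis) on each of the 12 arrays. Colours give the treatment group, and open triangles mark the 4 arrays with a log2 Ttr signal under 13, which hold 2 arrays with and 2 without detected Isl1.

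Few genes differed between the classes past the adjusted threshold, and all of those that did were higher where Isl1 was detected. Of 23031 probes tested by limma with treatment group as a covariate, 4 passed an adjusted p of 0.05 (0.0174%), and 0 of them were lower. They stood for Lbhd2, Ano2, Cdhr3 and a probe with no gene in the annotation used here (ILMN_1249220). Without adjustment, 512 probes (2.22%) were higher at p under 0.05 and 440 (1.91%) were lower. The median difference over all 12069 genes, each taken at its brightest probe, was -0.003 on the log2 scale. The count of 4 became 11 to 17 under another offset, without background correction, with median scaling and in the authors' processed table, and each time held the same 4 probes. It was 18 without control replicate 5 and 2 without control replicate 4. The ranges of the classes did not overlap for 47 probes that were higher (0.204%) and 17 that were lower (0.0738%).

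Lbhd2, a gene named for the LBH domain of its protein, had the largest difference of the 4. Its log2 signal was 8.52, 8.07 and 8.34 in ethanol replicates 1, 2 and 4 and 7.98, 9.10, 7.06 and 9.14 in control replicates 1, 3, 5 and 6, all with Isl1. In the arrays without Isl1 it was 4.90, 4.72 and 5.06 in ethanol replicates 3, 5 and 6 and 5.08 and 4.67 in control replicates 2 and 4. The lowest array with Isl1, control replicate 5, was also the array with the lowest detected Isl1 signal, and the classes lay far apart. Lbhd2 was detected on 7 of 7 arrays with Isl1 and on 0 of 5 without, so it entered the test only through the class in which it was high. Its mean was 8.32 ± 0.72 (SD, n = 7) against 4.89 ± 0.19 (SD, n = 5). It was at least 7.37-fold higher when the undetected arrays were set to the lowest log2 signal of a detected probe on each array. The limma adjusted p of 0.00105 belongs to the fit on the signals without this bound, and the bound itself was not tested. Lbhd2 had been proposed as a marker of these arrays from the same data, and its position in the ranking is therefore no independent evidence.

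Ano2, a calcium-activated chloride channel, was detected on all 12 arrays and also formed separate ranges. Its log2 signal was 7.64, 7.59 and 7.15 in ethanol replicates 1, 2 and 4 and 7.24, 7.28, 7.28 and 7.52 in control replicates 1, 3, 5 and 6, against 6.04, 6.26 and 6.44 in ethanol replicates 3, 5 and 6 and 6.01 and 6.33 in control replicates 2 and 4. The mean was 7.38 ± 0.19 (SD, n = 7) with Isl1 and 6.22 ± 0.19 (SD, n = 5) without, a log2 difference of 1.19 (95% interval 0.94 to 1.43, 2.28-fold, limma adjusted p = 0.00112). It was as high in control replicate 5, the array with the weakest detected Isl1, as in control replicate 3, the array with the strongest. With control replicate 5 moved to the arrays without Isl1, by a detection limit of 0.01, the difference of Ano2 was 1.01 and did not pass (limma adjusted p = 0.111).

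Cdhr3, a cadherin-related protein known in humans from ciliated airway cells as a receptor of rhinovirus C, was the remaining named gene. The arrays with Isl1 read 7.83, 8.00 and 7.55 in ethanol replicates 1, 2 and 4 and 7.33, 7.74, 7.13 and 7.54 in control replicates 1, 3, 5 and 6. Those without read 6.47, 6.55 and 6.93 in ethanol replicates 3, 5 and 6 and 6.53 and 6.52 in control replicates 2 and 4. Ethanol replicate 6, without Isl1, and control replicate 5, with it, were neighbours at the gap between the classes. The log2 difference was 1.03 (95% interval 0.76 to 1.31, 2.04-fold, limma adjusted p = 0.0122), from means of 7.59 ± 0.30 (SD, n = 7) and 6.60 ± 0.18 (SD, n = 5). A second, dimmer Cdhr3 probe differed by 0.51 and did not pass (limma adjusted p = 1.00). The call of Cdhr3 was lost (adjusted p 0.0588 to 0.0633) when ethanol replicate 1, ethanol replicate 5, control replicate 2 or control replicate 4 was left out, while Lbhd2 and Ano2 passed without any one of the 12 arrays.

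The class differences of Lbhd2, Ano2 and Cdhr3 had the same sign on each beadchip and in each treatment group. All of these genes had separate ranges between the classes, which fixes that sign in any such subset, so the agreement is no separate support. Within a beadchip or group the threshold was reached only by Lbhd2 among the ethanol arrays (limma adjusted p = 0.000458). Lbhd2 had been proposed as a marker from the same data. Since Lbhd2 was not detected without Isl1, no size is given for it in these subsets. For Ano2 the log2 difference was 1.41 on beadchip 1, 0.93 on beadchip 2, 1.21 among the ethanol and 1.16 among the control arrays. For Cdhr3 they were 1.22, 0.81, 1.14 and 0.91. Without the 4 arrays low in Ttr the differences of Ano2 and Cdhr3 were 1.16 and 0.99, and 0 probes passed the threshold among the 8 arrays left (limma adjusted p 0.525 for Lbhd2, 0.445 for Ano2 and 0.71 for Cdhr3). The interaction of Isl1 class with treatment group called 0 of 23031 probes (759, or 3.3%, at unadjusted p under 0.05). Ethanol against control with the Isl1 class in the model likewise called 0 probes (1128, or 4.9%, at unadjusted p under 0.05).

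**Figure D2:**
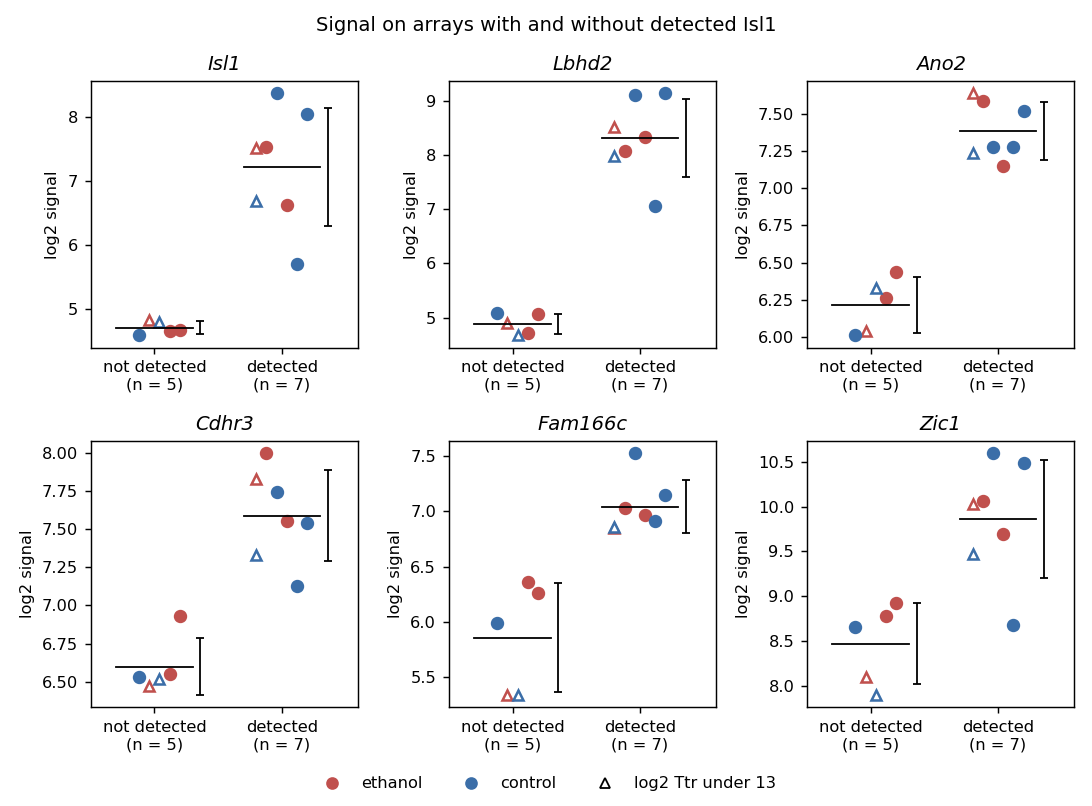
Log2 signal (vertical axes, scaled per gene) of Isl1, which set the classes, and of 5 other genes on the arrays without (n = 5) and with (n = 7) detected Isl1. Points are arrays, horizontal lines are class means and bars are 1 SD. Lbhd2, Ano2, Cdhr3 and Fam166c form separate ranges, and Zic1 on control replicate 5 lies within the range of the arrays without Isl1.

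The proximal promoters of the 3 genes past the threshold are shown because their transcripts were higher on the same arrays. They come from the RefSeq table of build GRCm38.p6 and run 5′ to 3′ from 250 bases before to 50 bases after a start that this table gives for the gene, the first listed for Ano2, which has several. The window of Lbhd2 lies within the span annotated for the gene. Lower case is plain sequence, with capitals marking a match to a searched motif.
Lbhd2, chr12:111406559-111406858, plus strand: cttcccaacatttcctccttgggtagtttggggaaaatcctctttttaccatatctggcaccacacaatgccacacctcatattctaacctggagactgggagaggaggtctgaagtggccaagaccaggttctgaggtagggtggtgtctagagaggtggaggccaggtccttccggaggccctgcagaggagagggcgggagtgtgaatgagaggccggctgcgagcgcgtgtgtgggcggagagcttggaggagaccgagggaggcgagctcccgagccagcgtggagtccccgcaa
Ano2, chr6:125690169-125690468, plus strand: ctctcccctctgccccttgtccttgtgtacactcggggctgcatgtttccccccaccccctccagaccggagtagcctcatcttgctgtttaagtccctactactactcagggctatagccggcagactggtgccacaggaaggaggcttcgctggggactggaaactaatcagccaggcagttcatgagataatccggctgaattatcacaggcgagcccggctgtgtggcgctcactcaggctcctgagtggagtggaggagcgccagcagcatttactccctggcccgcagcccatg
Cdhr3, chr12:33092826-33093125, minus strand: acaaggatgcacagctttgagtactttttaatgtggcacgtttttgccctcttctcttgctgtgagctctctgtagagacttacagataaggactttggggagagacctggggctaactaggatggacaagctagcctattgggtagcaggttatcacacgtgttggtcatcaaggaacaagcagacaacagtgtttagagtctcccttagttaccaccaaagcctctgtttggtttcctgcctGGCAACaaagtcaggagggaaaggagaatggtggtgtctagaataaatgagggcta
Both strands were searched for CTAATG, which holds the TAAT core bound by homeodomain proteins, and for GTTGCC, part of the X-box bound by RFX factors of ciliated cells. The letters GGCAAC in Cdhr3 are GTTGCC on the opposite strand, and neither motif occurred in the other 2 windows. Among 27025 genes with a promoter in the table, 7.4% held CTAATG and 12.7% held GTTGCC, and among the 9705 tested genes with a promoter these shares were 4.6% and 12.8%. Of the genes called in the fit on the Isl1 signal described further on, 19 had a promoter in the table, and 0 held CTAATG and 2 held GTTGCC. A match is a description of these letters and not a binding site.

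Adding log2 Ttr as a covariate left these calls in place. With Ttr in the fit, 5 of 23030 probes passed, all higher with Isl1 (0.0217%), and 1130 (4.91%) had an unadjusted p under 0.05. All 4 earlier probes were among them, and Lbhd2, Ano2 and Cdhr3 had limma adjusted p of 0.00283, 0.00283 and 0.0242. The count was 2 to 21 with each array left out in turn, the highest without control replicate 5. Cdhr3 passed in 3 of those 12 fits, and its adjusted p was 0.0652 with array weights and 0.0712 with the beadchip as a block.

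The added probe belonged to Fam166c. Its log2 signal was 6.85, 7.03 and 6.97 in ethanol replicates 1, 2 and 4 and 6.86, 7.53, 6.91 and 7.15 in control replicates 1, 3, 5 and 6. The arrays without Isl1 were at 5.34, 6.36 and 6.26 in ethanol replicates 3, 5 and 6 and 5.99 and 5.34 in control replicates 2 and 4. The 2 lowest were the arrays without Isl1 that were also low in Ttr, and it was detected on 3 of the 5. The log2 difference of Fam166c was 1.19 without Ttr (limma adjusted p = 0.0874) and 1.07 with it (95% interval 0.78 to 1.37, adjusted p = 0.0197). It passed in 5 of the 12 fits that left out 1 array, and neither with array weights nor with the beadchip as a block (0.0652 and 0.0712).

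Other genes high in the ranking did not pass. Slc10a4, a vesicular transporter of cholinergic and monoaminergic neurons, differed by 1.19 (limma adjusted p = 0.057), Cacng5, an auxiliary subunit of AMPA receptors, by 0.79 (0.0672) and Sln, the sarcolipin that regulates the SERCA calcium pump, by 1.36 (0.0672). Ebf3, a transcription factor of migrating and Cajal-Retzius neurons, differed by 1.30 (limma adjusted p = 0.0815). Slc10a4, Sln and Ebf3 formed separate ranges between the classes, whereas Cacng5 did not. Lrrc36 was detected on 6 of 7 arrays with Isl1 and 0 of 5 without and was at least 1.39-fold higher. Its limma adjusted p of 0.0815 belongs to the fit on the signals without this bound. With Ttr in the fit, Cfap65, a protein of motile cilia, differed by 0.78 (limma adjusted p = 0.061) and Prkcd, protein kinase C delta, by 0.83 (0.0889), and Cacng5, Slc10a4 and Ebf3 ranked between them by p.

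In the other direction the largest p-ranked difference was that of Snapc5, a subunit of the complex that drives small nuclear RNA genes. Its log2 signal was 5.56 ± 0.28 (SD, n = 7) with Isl1 and 6.35 ± 0.24 (SD, n = 5) without, a difference of -0.82 that did not pass (limma adjusted p = 0.104). Oip5os1, Safb2 and Epor differed by -0.60, -0.46 and -0.42, with limma adjusted p from 0.312 to 0.379. Pttg1 was detected on 0 of 7 arrays with Isl1 and on 3 of 5 without. It entered the test only through the class in which it was high, so no size is given, and it did not pass (limma adjusted p = 0.471). Uhmk1 read 5.13 ± 0.14 (SD, n = 7) and was not detected on any array with Isl1, against 5.50 ± 0.06 (SD, n = 5) on those without. Cgnl1, a protein of cell junctions, differed by -0.14 without Ttr in the fit and by -0.43 with it, and passed in neither.

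A graded reading used the Isl1 signal itself in place of the class, in the same limma model. It called 33 probes, all higher with more Isl1 (0.143%), and they named 21 genes and 9 probes without a gene. All 33 had an unadjusted p under 0.05 between the classes, and 18 of them had classes that did not overlap. Over all probes, 2.22% were higher at an unadjusted p under 0.05 and 0.204% were higher without overlap. The class is a cut of the same Isl1 signal, so these counts are no separate support. Adding Ttr to the graded fit gave 41 probes (0.178%), which held all 33. The slopes that follow are changes in log2 signal per unit of log2 Isl1 signal.

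On the 5 arrays without it Isl1 lay below detection, so the lower end of each slope rests on values that have no order. Lbhd2 passed (limma adjusted p = 0.000212), but on those arrays it was below detection as well, and its slope over the 12 arrays is not read. The transcription factors Zic4 and Zic1 followed Isl1 with slopes of 0.46 (0.37 to 0.54, adjusted p = 0.000317) and 0.59 (0.45 to 0.72, adjusted p = 0.00132). Zic1, also a marker proposed for these arrays, read 10.03, 10.06 and 9.70 in ethanol replicates 1, 2 and 4 and 9.47, 10.60, 8.68 and 10.48 in control replicates 1, 3, 5 and 6. Without Isl1 it read 8.10, 8.78 and 8.93 in ethanol replicates 3, 5 and 6 and 8.66 and 7.90 in control replicates 2 and 4. Control replicate 5 lay within the range of the arrays without Isl1, so the classes overlapped, and between classes Zic1 differed by 1.42 (0.76 to 2.08) without passing (limma adjusted p = 0.308). With each array left out in turn, Zic1 passed in 1 of 12 fits (limma adjusted p from 0.0388 to 0.943). That fit left out control replicate 5 and gave a difference of 1.58.

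Zic4 was also highest in control replicate 3, with 7.85 and 7.63 in control replicates 3 and 6, 7.66, 7.48 and 7.39 in ethanol replicates 2, 1 and 4, 6.91 in control replicate 1 and 6.42 in control replicate 5. Its arrays without Isl1 lay between 6.04 and 6.46 at this brightest probe, a range that again holds control replicate 5. A second Zic4 probe passed with a slope of 0.55, and another did not (0.18, limma adjusted p = 0.695). At the second probe the classes did not overlap, with a lowest value of 6.28 with Isl1 and a highest of 5.93 without. Its class difference was 1.44 and did not pass (limma adjusted p = 0.0672). Zfhx3, a transcription factor of subpallial and hypothalamic neurons, passed on each of its 3 tested probes, with slopes from 0.24 to 0.32. Dlx1, which drives the fate of GABAergic neurons, had a slope of 0.22 (limma adjusted p = 0.0186).

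Of the other genes past the threshold in the graded fit, Avpr1a, the vasopressin V1a receptor, had a slope of 0.47 (limma adjusted p = 0.00588) and ranged from 5.71 to 7.16 with Isl1 and from 5.04 to 5.71 without. Slc10a4 had a slope of 0.45 (adjusted p = 0.00056), and its highest arrays were control replicate 3 at 7.40 and ethanol replicate 1 at 7.34. Prkcd, Cacng5 and Ano2 had slopes of 0.30, 0.28 and 0.39 (adjusted p from 0.00632 to 0.0129). The calcium-permeable channel Trpc7 and Qrfprl, a relative of the receptor for the peptide QRFP, had slopes of 0.21 and 0.38. Cdhr3 had a slope of 0.37 (limma adjusted p = 0.00135), and the remaining named genes were Slc14a2, Arhgap6, Odf3b, 3300002A11Rik, Lrrc36, Tmie, Dmkn and Crygn. Slc14a2, Lrrc36 and 3300002A11Rik were detected on 0 of the 5 arrays without Isl1, and Avpr1a and Qrfprl on 2 of them. Arhgap6, Odf3b and Dmkn passed at a probe that was not the brightest of the gene.

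The 6 probes most like Isl1 over the 12 arrays, by Pearson correlation and given only as a description, were those of Lbhd2 (0.97), Slc10a4 (0.96), Zic4 (0.96) and Zfhx3 (0.96, at its probe ILMN_1213439) and the unnamed ILMN_2691743 (0.96) and ILMN_2450117 (0.95). All of these values rest on the same 12 arrays, of which 5 hold no measured Isl1. Within the 7 arrays with detected Isl1 alone, the graded fit called 0 of 23031 probes (838 at unadjusted p under 0.05). The slopes there were 0.70 for Zic1 (95% interval 0.53 to 0.86), 0.71 for Lbhd2 (0.42 to 1.00) and 0.10 for Ano2 (-0.10 to 0.29). These intervals are not adjusted for the number of probes, and limma adjusted p was 0.223 for Zic1 and 0.919 for Lbhd2. Both of these genes had been proposed as markers from the same data. Without the 4 arrays low in Ttr the graded fit called 17 probes, 15 of them among the 33, and Zic1 and Zic4 had slopes of 0.52 and 0.45 (limma adjusted p = 0.0181 and 0.0214).

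**Figure D3:**
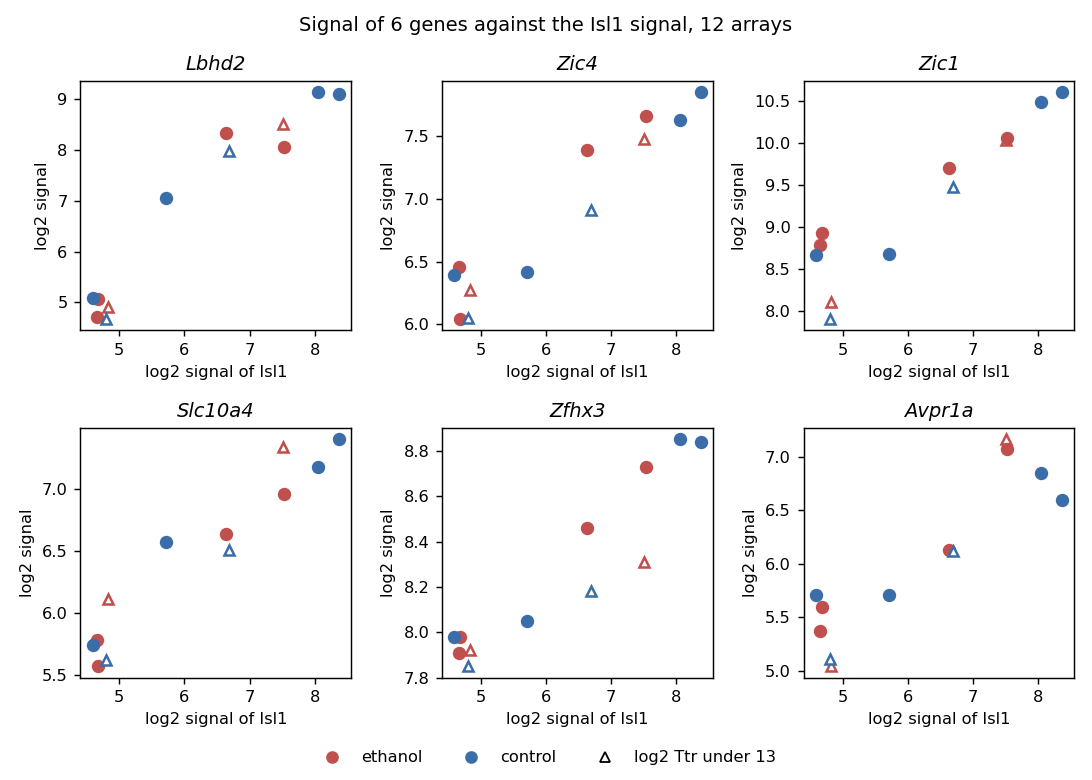
Log2 signal of 6 genes (vertical axes, scaled per gene) against the log2 signal of Isl1 (horizontal axes) on the 12 arrays. The 5 arrays on the left of each panel have no detected Isl1, and control replicate 5 is the isolated point at an Isl1 signal of 5.71. Zic1, Zic4 and Zfhx3 on that array lay near the arrays without Isl1, and Lbhd2 lay above them.

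Lists of markers for neighbouring regions and for other cell types were then read against all 12069 genes, of which 48.7% were higher with Isl1, 2.26% were higher at an unadjusted p under 0.05 and 1.67% were lower. Between the classes 0 members of the region and cell type lists passed the adjusted threshold (0.0249% of all genes were called higher). Counts of members at an unadjusted p are given as descriptions in what follows, since the lists were chosen with results of these data known.

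The septum list had the highest median of the region lists. It holds Zic1, a marker proposed for these arrays from the same data, together with Zic2 and Zic4, so this rank is no independent evidence. Of the 12 genes in the list, 9 were tested, all 9 had a positive difference with a median of 0.55, and 6 had an unadjusted p under 0.05. These were Zic1, Avpr1a, Zic4, Zic2, Dlx1 and Dlx6, with differences of 1.42, 1.20, 1.12, 0.88, 0.55 and 0.38. Avpr1a and Zic2 were each detected on 2 of 5 arrays without Isl1, so their sizes rest partly on values below detection. The other tested members, Meis2, Nts and Trpc4, differed by 0.14, 0.14 and 0.07, and Crhr2, Glp1r and Six3 were below the detection filter. In the graded fit 4 of the 9 passed (0.149% of all genes), against 2 of 7 in the extended amygdala list, 2 of 9 in that of CA2 and CA3, 1 of 10 in the subpallial list and 1 of 11 in the thalamus list, some of which share members. With Ttr in the fit the median of the list was 0.57 and the same number of members had an unadjusted p under 0.05.

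Subpallial genes of GABAergic neurons, which the septum shares with the striatum and with interneurons, had 10 of 14 members tested, a median of 0.32 and 5 members higher at an unadjusted p under 0.05. The zinc finger factors Sp9 and Sp8 differed by 0.59 and 0.50, and Dlx2 by 0.46. Sp9 was detected on 6 of 7 arrays with Isl1 and on 1 of 5 without, so its size rests partly on values below detection. The GABA-synthesizing enzymes Gad1 and Gad2 differed by 0.08 and 0.03. Of the Ebf factors, Ebf1 differed by 0.08, and Ebf2, detected on 3 of 7 arrays with Isl1 and on 0 of 5 without, was at least 1.04-fold higher. The median of the striatum list was 0.06 over 19 tested genes, with Drd2, the dopamine D2 receptor, at 0.33, Drd1 at -0.07 and Ppp1r1b, which encodes DARPP-32, at 0.16.

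Cholinergic identity could hardly be read. Chat and Slc18a3, which synthesize and package acetylcholine, and the transcription factor Gbx1 were below the detection filter. Slc5a7, the choline transporter, was detected on 3 of 7 arrays with Isl1 and on 0 of 5 without, at a level too low for a bound, and the LIM homeodomain factor Lhx8 differed by 0.16 without passing. Among 12 tested LIM homeobox genes and cofactors, 6 were higher and 6 lower, with a median of -0.009, and Lhx9, a factor of the thalamus, had an unadjusted p under 0.05 at -0.36.

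For the thalamus the median was -0.006 over 11 tested genes. Prkcd, Calb2 (calretinin) and Tcf7l2 differed by 0.79, 0.35 and 0.29, while Slc17a6, the vesicular glutamate transporter of thalamic relay neurons, differed by -0.01. The habenula list had a median of 0.03 over 8 genes. Only 5 of 25 hypothalamic genes passed the detection filter, and the peptides Pomc, Pmch, Hcrt and Avp were below it. Hdc, the histamine-forming enzyme, differed by 0.86 among them (limma adjusted p = 0.826) and by 0.70 with Ttr in the fit. In the extended amygdala list Prkcd and Zfhx3 were higher at an unadjusted p under 0.05, and its median was 0.16 over 7 genes. Cortical genes had a median of -0.08, with 10 of 11 lower, and Rorb, a layer 4 factor, at -0.16.

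The hippocampal pyramidal and granule cell lists had medians of -0.13 for CA1, 0.06 for CA2 and CA3 and -0.05 for dentate granule cells. Over all genes the median was -0.003. Lower members numbered 5 of 7, 3 of 9 and 5 of 7 in that order. The 2 members of the CA2 and CA3 list with an unadjusted p under 0.05 were Cacng5 and Prkcd, both also past the threshold in the graded fit. Of the vascular list, 12 of 14 genes were lower, with a median of -0.14 and with the receptor Tek at -0.26 and smooth muscle actin Acta2 at -0.42. The immediate early genes had a median of -0.14, with Arc at -0.47. All 13 tested myelin genes were higher, by a median of 0.20, among them Pllp at 0.33 and Mag at 0.31. The medians of the meninges, astrocyte, microglia and red cell lists were -0.06, 0.02, -0.11 and 0.09, and those of the hippocampal interneuron, subiculum and midbrain and hindbrain lists were -0.007, -0.05 and 0.00.

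**Figure D4:**
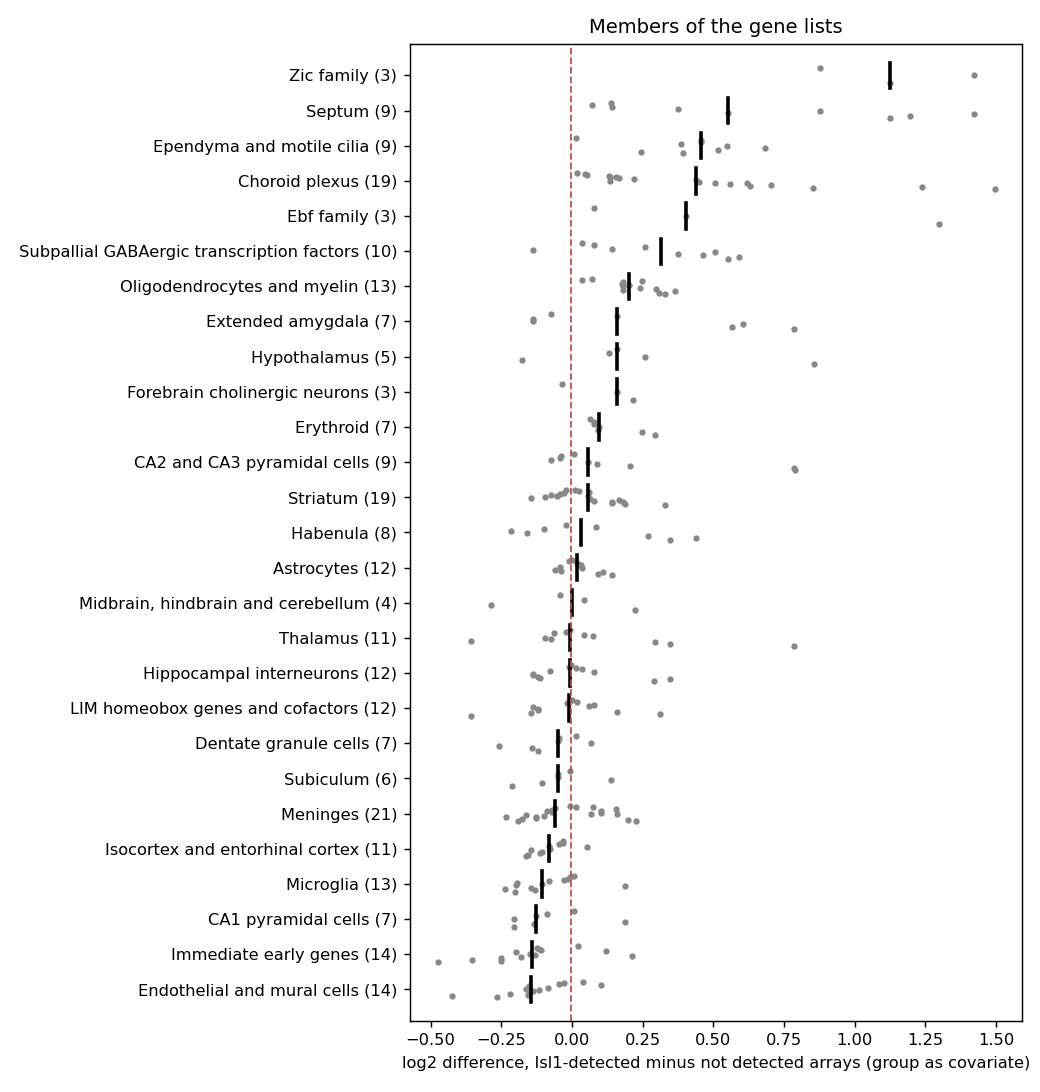
Log2 difference between the arrays with and without detected Isl1 (horizontal axis) for each tested member (points) of 27 gene lists (vertical axis, number of tested genes in brackets). Black bars are list medians and the dashed line is the median of all 12069 genes at -0.003. The Zic list has the highest median at 1.12, followed by the septum list at 0.55, which also holds Zic1, Zic2 and Zic4.

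The lining of the ventricle was the part of the comparison that changed with Ttr. All 19 tested choroid plexus genes were higher with Isl1 by a median of 0.44, with 0 at an unadjusted p under 0.05. The mean log2 signal of the list ran from 6.60 to 10.05 on the arrays with Isl1 and from 6.16 to 10.21 on those without, so the classes overlapped over nearly the whole range. Clic6, a chloride channel protein of the choroid plexus, had the largest difference at 1.49 and Ttr itself differed by 1.24. With Ttr as a covariate, 2 of 18 were higher, the median was -0.35 and 9 were lower at an unadjusted p under 0.05 (2.35% of all genes were). The sign of the list therefore turned with the covariate. Ttr is itself a member of this list, and as a covariate it mostly separates the 4 arrays low in Ttr from the other 8. The turn is therefore no independent evidence about the choroid plexus.

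Ependymal and cilium genes kept their sign. All 9 tested members were higher, with a median of 0.46 that became 0.21 with Ttr in the fit, and 5 were then higher at an unadjusted p under 0.05, against 2.57% of all genes. In that fit 4 genes of the 12068 tested passed the adjusted threshold (0.0331%), none of them in this list. Dynlrb2, a light chain of dynein motors, differed by 0.46 with Ttr in the fit, Rsph1, a protein of the radial spokes of cilia, by 0.36, Rarres2 by 0.38 and Enkur by 0.35. The mean log2 signal of the list ran from 7.67 to 8.47 with Isl1 and from 7.10 to 8.16 without. Whether ependyma in the samples had a part in the calls of Cdhr3 and Fam166c was not tested.

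**Figure D5:**
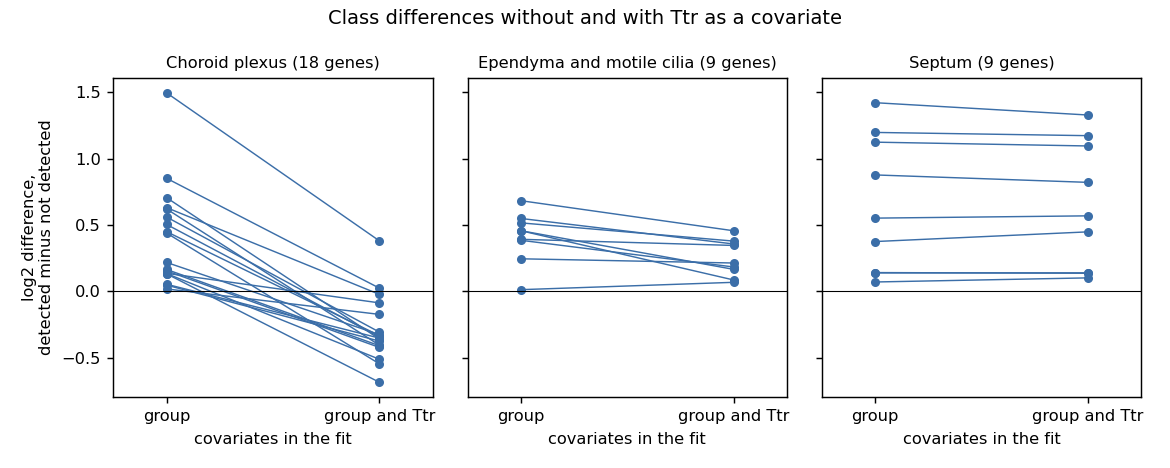
Log2 difference between the arrays with and without detected Isl1 (vertical axis) for each tested gene of 3 lists, in the limma fit with treatment group alone and in the fit with treatment group and log2 Ttr (horizontal axis). Lines join the same gene. Choroid plexus genes go from a median of 0.44 to -0.35, ependymal genes from 0.46 to 0.21 and septal genes from 0.55 to 0.57.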

How the data were processed

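The deposited scanner table gives a linear bead intensity and a detection p-value per probe and array, per the file headers, and its intensities had not been normalized between arrays. GenomeStudio 1.9.0 is named in the submitters' processing notes, with no settings. The authors' second deposited table of processed intensities served as an alternative.

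In R 4.3.3 with limma 3.58.1 (statmod 1.5.0), background was removed by normexp fitted through the detection p-values with an offset of 16, followed by quantile normalization between arrays and log2. A probe entered the tests when 3 or more of the 12 arrays detected it at 0.05. The Isl1 probe, and Ttr where it was a covariate, were left out of the fits. The quantile step removes any shift that all probes share, and the offset draws dim differences towards 0. Models held the Isl1 class and treatment group, with log2 Ttr added in a second fit and with the log2 Isl1 signal in place of the class as an alternative, and p-values were adjusted by Benjamini-Hochberg over all tested probes at 0.05. Intervals are 95% intervals of limma.

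Of the probes kept, 19446 had 1 gene in the platform annotation, 10 had several and 3575 had none. A gene was taken at its brightest probe. The deviations of same-numbered ethanol and control arrays had correlations from -0.22 to 0.31, and the main fits did not pair the samples by number. Correlations of whole arrays cannot exclude a pairing. The fit was tested on simulated data. The arrays' classes, gene lists and named genes were chosen with earlier results of these data known. Named were up to 12 genes per direction past the threshold, or up to 6 more by p, up to 4 members of each list, Isl1, Lbhd2, Zic1, Ttr and Slc17a6, and the 6 probes most correlated with Isl1. The genes named only from the graded fit, and the list members beyond 4, were chosen after their values were seen.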

Additional observations from a re-analysis of the deposited data

Results flagged for a closer look

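Of 112 combinations of a named gene and a treatment group, 3 held an array far from the other 5 of its group by Dixon's criterion, which chance alone meets in about 1 in 20 groups. Zic2 had a log2 signal of 5.27 in control replicate 4, against 6.36 to 6.88 in the other control arrays. Sp9 read 4.94 in the same array, against 5.66 to 6.08. The lowest log2 signal of a detected probe on control replicate 4 was 5.41, so both values were below detection there. Hdc read 7.65 in ethanol replicate 3, against 8.74 to 9.34 in the other ethanol arrays. Both arrays were without detected Isl1 and low in Ttr, and the part of either in these values was not tested.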

How the results depend on the processing

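Between the classes 4 probes passed with treatment group as a covariate. This count was 17 with an offset of 50, 15 without background correction, 11 with scaling to a common median, 15 in the authors' processed table, 15 with Isl1 called at a detection p-value under 0.01, 33 on the Isl1 signal and 10 without the group covariate. It was 1 among the ethanol arrays, 0 among the control arrays, 0 on either beadchip alone and 0 without the arrays low in Ttr. Leaving out each array in turn gave 2 to 18, the lowest without control replicate 4 and the highest without control replicate 5. With Ttr, 5 probes passed; the corresponding counts were 22 (2 of them lower), 24 (1 lower), 16, 24 (1 lower), 20 and 41, with 3 under array weights, 3 with the beadchip as a block, 0 without the arrays low in Ttr, and 2 to 21 with each array left out. The graded fit called 33 probes, 17 without the arrays low in Ttr, 0 among the arrays with detected Isl1, 0 in either treatment group alone and 23 to 37 with each array left out. With the replicate block, which pairs arrays by their replicate number, the counts were 1, 0 and 9. The fits within a beadchip, a group or a class hold fewer arrays; the cause of the other shifts was not tested. Within each of the 3 fits, none of the named genes recomputed under these settings, 29 in all, changed its sign. They were chosen from the same fits, mostly by small p, so this stability is no independent support. The choroid plexus list, compared between fits, did change its sign. Detection limits what can be read of dim genes such as Chat, and Isl1 itself rests on 1 probe.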
